A study of Mus musculus with 8 samples.

Results

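The 10 genes described here encode killer lectin-like receptors, taken from the count table by their symbols: Klrd1, Klrc1, Klrc2, Klrk1, Klre1, Klra7, Klra1, Klrg1, Klrb1c and Klrb1b. All 10 were found among the 25230 gene symbols of the table, and all 10 passed the filter on low counts, which kept 14691 genes. They were measured in intraepithelial lymphocytes (IELs), the T cells lodged between the epithelial cells of the intestine. The cells came from C57BL/6J mice, with age and sex not stated in the labels. In the Ex4 group 4 mice received 35 µg of anti-CD3, an antibody that triggers the T cell receptor complex, together with 10 nmol/kg of exendin-4, an agonist of the GLP-1 receptor. In the PBS group 4 mice received the same anti-CD3 injection with PBS. All 8 mice were thus stimulated through CD3, and no unstimulated mice are among the groups analysed here. Gut lymphocytes were collected 3 hours later on Percoll and sorted for CD45 alone, a protein that all leukocytes carry, so the sort did not separate T cells from other lymphocytes.

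Killer lectin-like receptors are C-type lectin-like surface proteins of natural killer cells and of cytotoxic T cells. Inhibitory members carry a cytoplasmic motif that recruits phosphatases, and activating members pair with adaptor proteins that recruit kinases. CD94, encoded by Klrd1, forms heterodimers with the NKG2 chains of Klrc1 and Klrc2 and binds the class I-like molecule Qa-1. NKG2D, encoded by Klrk1, senses stress-induced ligands, and Ly49 and NKR-P1 receptors read class I molecules and Clr proteins. IELs of the small intestine are known to bear several of these receptors, which set the threshold at which they respond to the epithelium.

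Total counts ran from 13386889 to 31843413 in the 4 Ex4 libraries and from 18266449 to 25333644 in the 4 PBS libraries. Values below are CPM, counts scaled to a common library size, with SDs over 4 libraries. The T cell marker Cd3e was at 642 to 1061 CPM in Ex4 and 581 to 955 CPM in PBS. Of 10 IEL markers 6 had a log2 fold change above 0 and 4 below. Against 4.95% of all genes tested, the groups did not overlap for 1 of them. That was Cd8a, carried by cytotoxic T cells and most IELs, at 953 to 1219 CPM in Ex4 and 1363 to 2074 CPM in PBS (log2 fold change -0.59, edgeR adjusted p = 0.351, and -0.45 without PBS 1). PBS 1 stood apart for 33.5% of the genes tested, in that its value lay above or below all other 7, and Ex4 4 did so for 36.2% and Ex4 3 for 32.4%. In PBS 1 this held for 7 of the 10 receptor genes, 2 above and 5 below the rest. Results that rest on PBS 1 are therefore given with and without it. The sorted cells also held transcripts of other cells. The summed level of 6 natural killer cell markers ran from 53.0 to 95.3 CPM in Ex4 and from 57.6 to 88.8 CPM in PBS. Ncr1, carried by natural killer cells and by some innate lymphoid cells of the gut, was at 3.89 to 8.93 CPM in Ex4 and at 7.71 to 13.4 CPM in PBS. The summed level of 10 epithelial markers was 206 to 374 CPM in Ex4 and 346 to 622 CPM in PBS, and that of 6 innate lymphoid markers 127 to 209 CPM in Ex4 and 125 to 261 CPM in PBS. That of 8 conventional T cell markers was 156 to 398 CPM in Ex4 and 61.8 to 217 CPM in PBS. All 8 had a log2 fold change above 0 (median 0.89). For 4 the unadjusted edgeR p was under 0.05, where 3.71% of all genes tested were higher. All 10 epithelial markers were below 0 (median -0.64), 2 at that p, where 3.90% were lower. Of the tested natural killer markers 4 were above 0 and 1 below, and of the innate lymphoid markers 3 and 2. PBS 1 was the lowest PBS library in the conventional T cell and epithelial sums. The part of these cells, and of the Cd8a difference, in the receptor values was not tested.

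All 10 genes lie on chromosome 6 of GRCm38, the assembly also called mm10, and 9 of them in the natural killer gene complex, with Klrg1 farther off. Klrd1 spans positions 129588092 to 129598775, Klra7 positions 130218605 to 130233322 and Klrb1c positions 128778485 to 128788641. Neighbours in the complex arose by duplication and resemble each other, which bears on how reads were counted. Over their coding sequences Klrc1 and Klrc2 were 83.1% identical, Klra1 and Klra7 88.1%, Klrb1b and Klrb1c 86.0%, and Klrb1a and Klrb1c 92.6% (GENCODE M21 transcripts). Of all stretches of 50 bases in Klrc1 transcripts, 36.6% also occurred in Klrc2, so reads of this pair could be split between the genes. The share was 3.56% for Klrb1c with Klrb1a and 12.3% for Klra7 with the pseudogene Klra13-ps, which had no count in any library. Klrd1, Klrk1, Klre1 and Klrg1 shared no stretch of 50 bases with any other receptor gene. The 90 aligned coding bases with the most differences are shown for 3 pairs on which the comparisons below turn, with capitals at the positions where the pair differs.
Klrc1: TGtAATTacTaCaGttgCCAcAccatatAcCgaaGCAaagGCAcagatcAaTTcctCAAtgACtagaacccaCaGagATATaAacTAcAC
Klrc2: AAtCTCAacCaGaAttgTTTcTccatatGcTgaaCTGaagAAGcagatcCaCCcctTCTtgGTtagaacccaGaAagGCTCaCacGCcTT
Klra7: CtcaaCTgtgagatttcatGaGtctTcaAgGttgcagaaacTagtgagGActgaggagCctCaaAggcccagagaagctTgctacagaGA
Klra1: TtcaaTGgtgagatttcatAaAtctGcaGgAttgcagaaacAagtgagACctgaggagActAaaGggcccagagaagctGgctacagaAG
Klrb1c: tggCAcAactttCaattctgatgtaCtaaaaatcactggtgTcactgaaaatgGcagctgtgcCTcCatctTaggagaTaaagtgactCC
Klrb1a: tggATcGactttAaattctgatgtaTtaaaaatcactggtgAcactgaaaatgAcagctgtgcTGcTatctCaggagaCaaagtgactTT
The stretches hold 40 differences for Klrc1 and Klrc2, 17 for Klra7 and Klra1, and 14 for Klrb1c and Klrb1a.

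The comparison asked whether exendin-4 altered these receptors in IELs activated through CD3. No receptor gene passed the test over all genes, in which edgeR called 0.0136% of 14691 genes at an adjusted p under 0.05. Klra7 and Klrd1 were the 2 genes whose 4 Ex4 values all exceeded the 4 PBS values, a pattern that 2.29% of all genes tested showed. For 0 of the 10 did all Ex4 values lie below, as they did for 2.66% of all genes tested, and 4.95% were apart in either direction. At an unadjusted p under 0.05 there were 3 of the 10, Klra7, Klrd1 and Klrk1, all higher in Ex4, against 3.71% of all genes tested in that direction and 7.61% in either. Of the 10 log2 fold changes 5 were above 0 and 5 below, with a median of 0.12, against 0.02 over all genes tested. Without PBS 1, Klra7 and Klrd1 kept an unadjusted p under 0.05, Klrk1 did not (2.66% of 15203 genes were then higher at that p), and the median was -0.01. Together the 10 genes took 0.0777 to 0.0806% of all counts in Ex4 and 0.0578 to 0.0693% in PBS, and Klrd1 alone held 61.3 to 69.7% of these receptor counts over the 8 libraries. In sorted bulk cells, a change in the number of cells that carry a receptor and a change in its RNA per cell cannot be told apart.

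**Figure D1:**
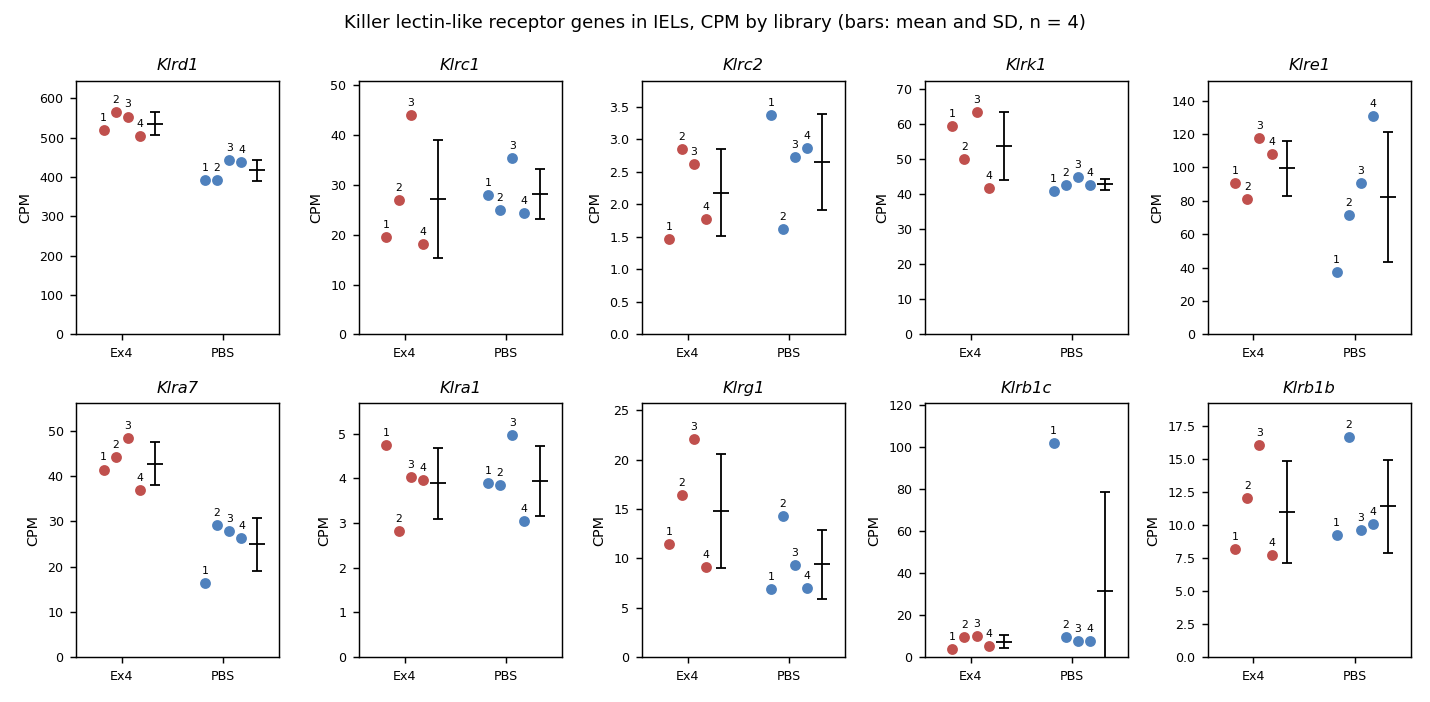
CPM (y axis, linear from 0) of the 10 killer lectin-like receptor genes in the 4 Ex4 libraries (red) and the 4 PBS libraries (blue), numbered by replicate, with the mean and SD beside them; the SD bar of Klrb1c in PBS runs below 0 and stops at the axis. The groups do not overlap for Klrd1 and Klra7, and PBS 1 stands far above all other libraries for Klrb1c.

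Klrd1 was, per length, the most abundant of the 10 genes. It encodes CD94, the invariant partner of the NKG2 chains. It had 519.9, 566, 554 and 503 CPM in Ex4 libraries 1 to 4, against 393, 393, 442 and 438 CPM in PBS libraries 1 to 4. The lowest Ex4 value thus lay above the highest PBS value, with means of 536 ± 29.2 CPM in Ex4 and 417 ± 27.3 CPM in PBS. The log2 fold change was 0.36 (SE 0.12), and it did not pass (edgeR adjusted p = 0.466, and DESeq2 adjusted p = 0.1). With 1 library left out it stayed between 0.32 and 0.38.

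Klrc1 encodes NKG2A, the inhibitory chain that joins CD94. It had 19.5, 26.9, 43.9 and 18.2 CPM in Ex4, against 28.0, 24.9, 35.3 and 24.3 CPM in PBS. The PBS values lay within the Ex4 range, in which Ex4 3 was the highest of all 8 libraries. The log2 fold change was -0.05 (SE 0.25, edgeR adjusted p = 0.98). It was -0.40 without Ex4 3 and 0.08 without Ex4 4, so it had no stable sign.

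Klrc2 encodes NKG2C, an activating chain that also joins CD94. It was near the limit of what could be counted, with 25 to 76 counts in Ex4 and 39 to 70 counts in PBS. In CPM this was 1.46, 2.86, 2.62 and 1.77 in Ex4, against 3.37, 1.62, 2.73 and 2.87 in PBS. The groups overlapped, with a log2 fold change of -0.27 (SE 0.45, edgeR adjusted p = 0.937). It was -0.14 without Ex4 1 and -0.47 without PBS 2. The third gene of the group, Klrc3, had 4 to 9 counts in Ex4 and 3 to 5 counts in PBS. The sum over the 3 Klrc rows was 29.6 ± 12.2 CPM in Ex4 and 31.0 ± 5.32 CPM in PBS, again with overlap. This sum does not depend on how counted reads were split among the rows. Whether reads that match several of these genes were counted at all is not known.

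The balance of the 2 NKG2 chains was compared as the share of Klrc2 in the counts of Klrc1 and Klrc2. It was 7.77 ± 1.80% in Ex4 and 8.64 ± 2.35% in PBS, and the groups overlapped (exact two-sided permutation p = 0.543, adjusted p = 0.543 over 4 shares, n = 4 each). The share of Klrc1 in the counts of Klrc1 and Klrd1 was 3.61, 4.54, 7.34 and 3.49% in Ex4, against 6.65, 5.94, 7.40 and 5.25% in PBS. In 3 Ex4 libraries it lay below every PBS library, and Ex4 3 lay within the PBS range. The difference was -1.57 percentage points (exact permutation p = 0.143, adjusted p = 0.286 over 4 shares). The smallest p that 70 assignments of 8 libraries allow is 0.0286.

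Klrk1 encodes NKG2D, which activates cytotoxic cells through the adaptor DAP10 and, for a short mouse form, DAP12. It had 59.6, 50.2, 63.4 and 41.7 CPM in Ex4, against 41.0, 42.7, 44.96 and 42.8 CPM in PBS. Ex4 1, 2 and 3 lay above all PBS libraries, and Ex4 4, the shallowest library, lay within them. The PBS values were close together, at 42.9 ± 1.60 CPM, while Ex4 averaged 53.7 ± 9.74 CPM. The log2 fold change was 0.33 (SE 0.15, edgeR adjusted p = 0.636). Leaving out Ex4 3 gave 0.22 and leaving out Ex4 4 gave 0.42.

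The adaptors of NKG2D gave different values. Hcst, which encodes DAP10, had 122, 102, 121 and 121 CPM in Ex4, against 55.0, 76.7, 79.9 and 94.8 CPM in PBS. All Ex4 libraries lay above all PBS libraries, and the log2 fold change was 0.61 (SE 0.16), short of the threshold (edgeR adjusted p = 0.335, and DESeq2 adjusted p = 0.0543). It was 0.47 without PBS 1. Tyrobp, which encodes DAP12, had 233.7 ± 58.0 CPM in Ex4 and 284 ± 71.7 CPM in PBS, with overlap (log2 fold change -0.28, edgeR adjusted p = 0.793). That value was -0.10 without PBS 1, where Tyrobp was highest at 391 CPM. Among NKG2D ligands, Ulbp1, the gene of MULT1, had 2.44, 5.15, 5.07 and 3.61 CPM in Ex4, against 15.2, 7.22, 3.72 and 6.30 CPM in PBS (log2 fold change -0.99, edgeR adjusted p = 0.595). It was -0.51 without PBS 1. H60b, another ligand gene of the receptor, was at 0.150 to 1.07 CPM in Ex4 and 0.248 to 0.788 CPM in PBS.

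**Figure D2:**
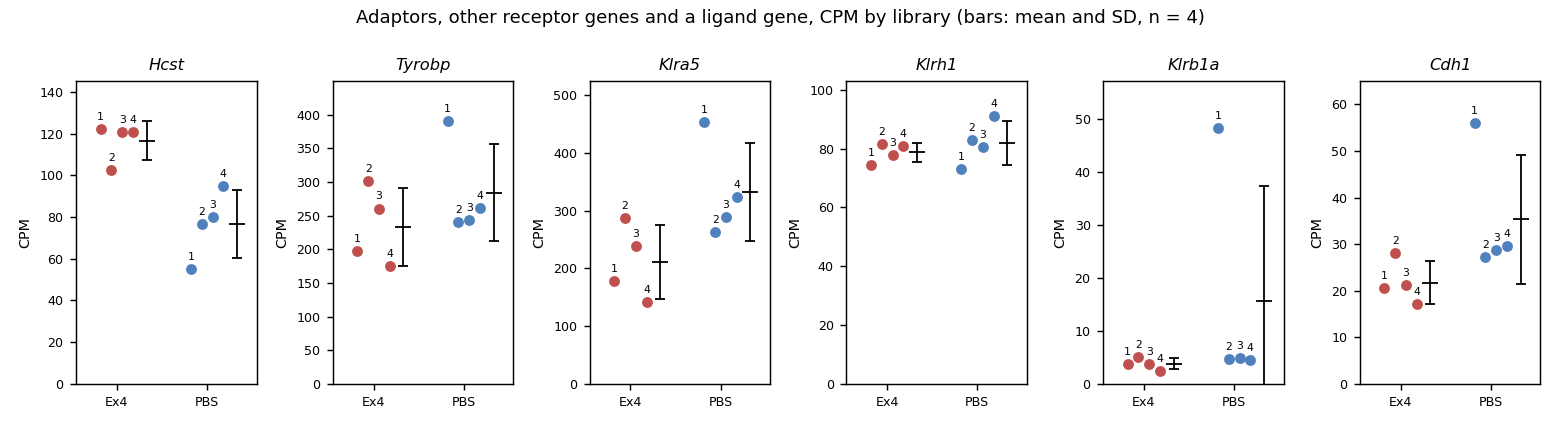
CPM (y axis, linear from 0) of the adaptor genes Hcst and Tyrobp, the receptor genes Klra5, Klrh1 and Klrb1a and the ligand gene Cdh1 in the 4 Ex4 libraries (red) and the 4 PBS libraries (blue), numbered by replicate, with mean and SD; the SD bar of Klrb1a in PBS stops at the axis. The groups do not overlap for Hcst alone of the 6, and PBS 1 is the highest library for Tyrobp, Klra5, Klrb1a and Cdh1.

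Klra7 had the smallest p of the 10 genes. It encodes Ly49G, an inhibitory receptor for class I molecules. It had 41.5, 44.3, 48.5 and 37.0 CPM in Ex4, against 16.4, 29.3, 27.9 and 26.3 CPM in PBS. The groups did not overlap, and PBS 1 was the lowest library. The log2 fold change was 0.78 (SE 0.18), which did not pass in edgeR (adjusted p = 0.31) and passed in DESeq2 (adjusted p = 0.0287, where 0.895% of 9277 genes were called). Without PBS 1 it was 0.61 (SE 0.15, edgeR unadjusted p = 0.00117, adjusted p = 0.48).

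Klra1 encodes Ly49A, another inhibitory Ly49 receptor for class I. It had 56 to 117 counts in Ex4 and 54 to 100 in PBS, or 4.74, 2.82, 4.04 and 3.96 CPM in Ex4, against 3.90, 3.86, 4.96 and 3.04 CPM in PBS. The groups overlapped, and the log2 fold change was -0.02 (SE 0.35, edgeR adjusted p = 0.994). The share of Klra7 in the counts of Klra1 and Klra7 was 89.8, 94.0, 92.3 and 90.3% in Ex4, against 80.8, 88.3, 84.9 and 89.7% in PBS. Every Ex4 share lay above every PBS share (exact permutation p = 0.0286, the smallest possible, and adjusted p = 0.114 over 4 shares). A share alone at the smallest p cannot get a lower adjusted p, so this test could not have passed by itself. The difference was 5.68 percentage points, and 3.96 without PBS 1.

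**Figure D3:**
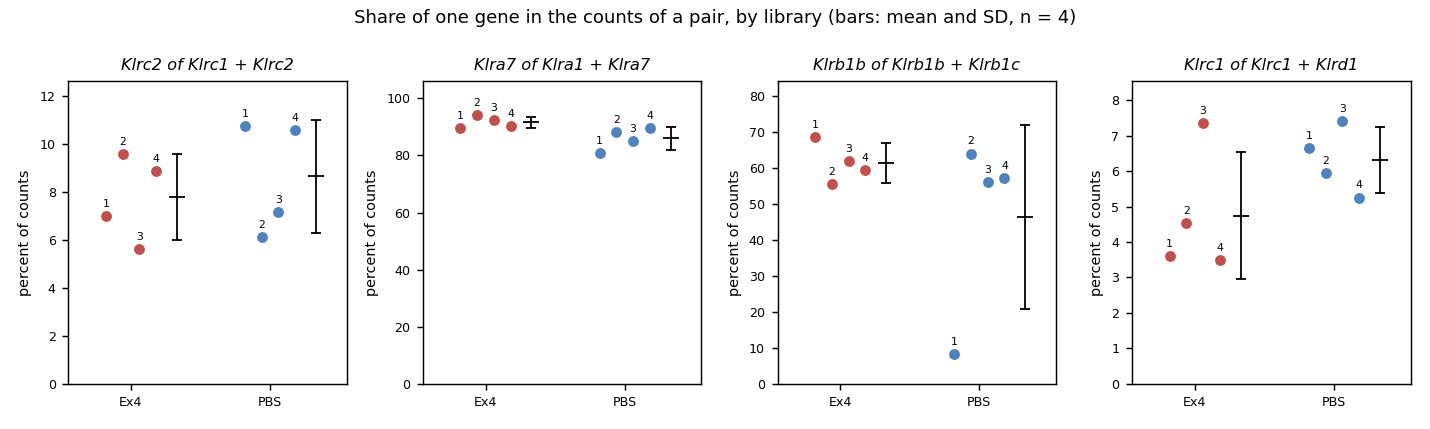
Share of a gene in the summed counts of a pair (y axis, percent, linear from 0) in the 4 Ex4 libraries (red) and the 4 PBS libraries (blue), numbered by replicate, with mean and SD. The groups do not overlap for Klra7 of Klra1 + Klra7, and PBS 1 is low for Klrb1b of Klrb1b + Klrb1c at 8.32%.

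Other Ly49 genes were measured beside these. Klra5, which encodes Ly49E, had 179, 288, 239 and 142 CPM in Ex4, against 453, 264, 288 and 324 CPM in PBS. The groups overlapped by a single library on either side, Ex4 2 and PBS 2. Its log2 fold change was -0.65 (SE 0.22, edgeR adjusted p = 0.477), in the opposite direction to that of Klra7, and it was -0.47 without PBS 1. Klra3, which encodes Ly49C, was at 6.82 ± 2.97 CPM in Ex4 and 5.34 ± 0.993 CPM in PBS, and Klra9, the gene of Ly49I, at 2.07 ± 0.826 CPM in Ex4 and 2.10 ± 1.06 CPM in PBS. Klra17, the gene of Ly49Q, was at 1.43 ± 0.885 CPM in Ex4 and 2.42 ± 1.32 CPM in PBS (log2 fold change -0.74, and -0.30 without PBS 1). Summed over all 20 Klra rows of the table, of which 12 had a count, the level was 269 ± 69.5 CPM in Ex4 and 372 ± 78.3 CPM in PBS, and the groups overlapped. PBS 1 was the highest library at 483 CPM, and the other 3 PBS libraries averaged 334 ± 29.7 CPM.

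Klrb1c encodes the activating receptor NKR-P1C, which carries the NK1.1 epitope in C57BL/6 mice. It had 3.72, 9.56, 9.87 and 5.24 CPM in Ex4, against 102, 9.34, 7.54 and 7.54 CPM in PBS. PBS 1 held 2117 counts of the gene, and no other library had more than 286. With all 8 libraries the log2 fold change was -2.14 (SE 1.04, edgeR adjusted p = 0.686). Without PBS 1 it was -0.20 (SE 0.36, adjusted p = 0.986). Compared with the median of the other 7 libraries, Klrb1c was 13.5-fold higher in PBS 1, and 4 of the 14691 genes tested reached that ratio, Klrb1c included.

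The excess in PBS 1 extended to some neighbours of Klrb1c and not to others. Klrb1a, the gene of NKR-P1A, had 3.77, 5.00, 3.79 and 2.48 CPM in Ex4, against 48.3, 4.65, 4.81 and 4.44 CPM in PBS, so that PBS 1 was 10.9-fold above the median of the other 7. Klrb1f was 3.15-fold above that median at 6.21 CPM, and Clec2i, past Klrb1b, 2.11-fold at 27.4 CPM. Farther along the chromosome Klra17, Klra5, Klri2 and Klrc2 were also higher in PBS 1 than in all other libraries (2.67-, 1.72-, 1.65- and 1.28-fold the median). Klre1, Klrd1, Klrk1, Klrh1 and Klra7 were lower there than in all others. Klrb1, between Klrb1a and Klrb1c on the chromosome, was within the range of the others at 9.58 CPM. Ncr1 was at 12.8 CPM in PBS 1 and 13.4 CPM in PBS 3, and the natural killer marker Eomes at 0.962 CPM in PBS 1, within the range of the other libraries. The summed natural killer markers were 88.8 CPM in PBS 1, the highest PBS value and within the Ex4 range. Of that sum Fcgr3 alone made up 62.9 CPM, so it says little about the other markers. Kit, a receptor of mast cells and innate lymphoid cells, was highest in PBS 1 at 146 CPM, while the other 7 lay at 23.8 to 49.0 CPM. Whether other cells contributed to the receptor values of PBS 1 was not tested.

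The promoter windows of Klrb1c and Klrb1a, the genes that were high together in PBS 1, were 90.8% identical over aligned bases, while Klrb1c and Klrb1b were 60.7% identical (RefSeq, GRCm38.p6, 250 bases before to 50 after the start). The windows of Klrb1c and Klrb1a held TGTGGT, the core letters bound by RUNX factors, which is shown in capitals with 27 bases on either side.
Klrb1c: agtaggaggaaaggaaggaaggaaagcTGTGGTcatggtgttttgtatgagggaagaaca
Klrb1a: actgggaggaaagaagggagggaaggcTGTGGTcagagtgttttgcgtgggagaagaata
The stretch of Klrb1c is chr6:128788698-128788757 and that of Klrb1a chr6:128623028-128623087, both on the minus strand. The match starts 89 bases before the annotated start of Klrb1c and 126 bases before that of Klrb1a. The letters were not found in the windows of Klrb1b. Nor were they in those of Klrb1f, Klra17 and Klra5, which were also higher in PBS 1 than in all other libraries. Klrc2, higher there as well, had them. Klrk1 and Klre1, lower in PBS 1 than in all other libraries, had windows with the letters, while Klra7 and Klrh1, also lower, had none. Of all 32851 promoter windows 16.8% held the letters on either strand.

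Klrb1b encodes an inhibitory NKR-P1 receptor that binds Clr-b. It had 8.20, 12.04, 16.0 and 7.71 CPM in Ex4, against 9.24, 16.7, 9.63 and 10.1 CPM in PBS. PBS 2 and Ex4 3 were the highest libraries, and the groups overlapped (log2 fold change -0.05, SE 0.29, edgeR adjusted p = 0.982). Clec2d, the gene of its ligand Clr-b, was at 3.42 ± 0.432 CPM in Ex4 and 4.17 ± 1.51 CPM in PBS. The share of Klrb1b in the counts of Klrb1b and Klrb1c was 61.5 ± 5.47% in Ex4 and 46.4 ± 25.7% in PBS, where PBS 1 was at 8.32% and the other 3 at 56.1 to 64.1% (exact permutation p = 0.314, adjusted p = 0.419 over 4 shares). The difference of 15.1 percentage points was 2.38 without PBS 1.

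**Figure D4:**
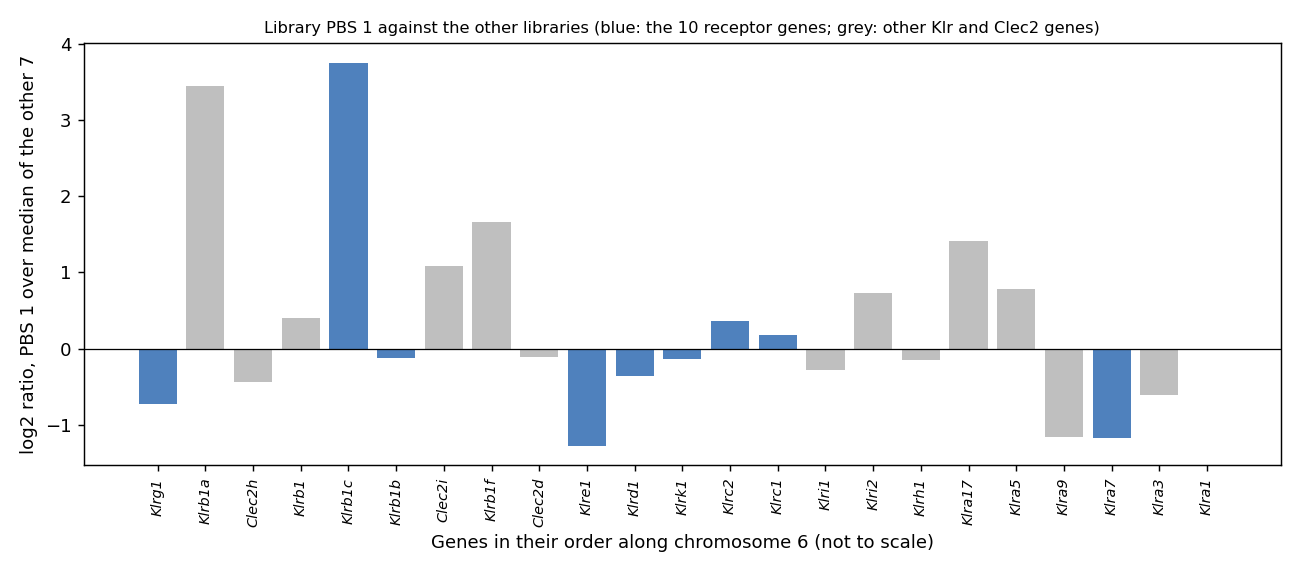
Log2 ratio of the CPM in PBS 1 to the median of the other 7 libraries (y axis) for Klr and Clec2 genes with at least 80 counts in all, in their order along chromosome 6 (x axis, not to scale); blue bars are the 10 receptor genes described here. Klrb1a and Klrb1c exceed 3 on this scale, while Klrb1b beside them is near 0 and Klre1, Klra7 and Klra9 are below -1.

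Klre1 encodes a receptor chain that pairs with KLRI1 or KLRI2. It had 90.9, 81.3, 117 and 108 CPM in Ex4, against 37.5, 71.5, 90.4 and 130.8 CPM in PBS. PBS libraries held both the lowest value, in PBS 1, and the highest, in PBS 4. The log2 fold change was 0.27 (SE 0.31, edgeR adjusted p = 0.896), and it was 0.02 without PBS 1 and 0.56 without PBS 4. The partners did not pass either. Klri1, the gene of an inhibitory chain, was at 14.1 ± 3.64 CPM in Ex4 and 16.8 ± 4.79 CPM in PBS. Klri2, the gene of an activating chain, was at 11.7 ± 3.77 CPM in Ex4 and 13.6 ± 3.47 CPM in PBS.

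Klrg1 encodes an inhibitory receptor for E-cadherin, found on terminally differentiated effector T cells and some innate lymphoid cells. It had 11.4, 16.4, 22.1 and 9.13 CPM in Ex4, against 6.88, 14.3, 9.33 and 6.98 CPM in PBS. Ex4 3 and Ex4 2 were the highest libraries, and PBS 2 and PBS 3 lay among the Ex4 values. The log2 fold change was 0.66 (SE 0.31, edgeR adjusted p = 0.658). It was 0.38 without Ex4 3 and 0.92 without PBS 2. Cdh1, the gene of E-cadherin, had 20.6, 28.1, 21.2 and 17.1 CPM in Ex4, against 56.1, 27.1, 28.7 and 29.5 CPM in PBS (log2 fold change -0.70, edgeR adjusted p = 0.473, and -0.39 without PBS 1). Epcam, an epithelial marker, was at 97.4 to 144 CPM in Ex4 and at 145.7 to 184 CPM in PBS, and the part of epithelial RNA in the Cdh1 value was not tested.

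**Figure D5:**
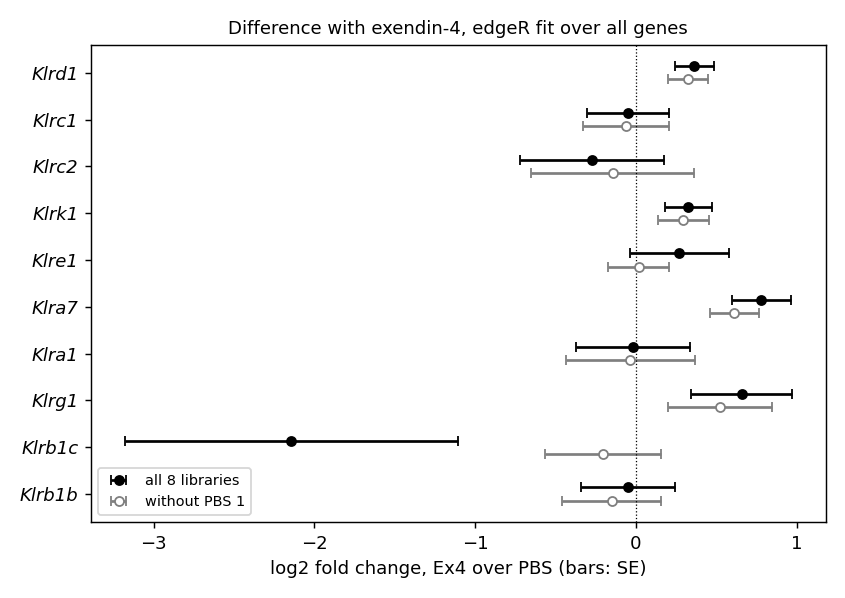
Log2 fold change of Ex4 over PBS with its SE (x axis) for the 10 receptor genes (y axis), from the edgeR fit over all genes with all 8 libraries (filled) and without PBS 1 (open). Klra7 and Klrd1 stay above 0 by more than 2 SEs in both fits, and Klrb1c moves from -2.14 with all libraries to -0.20 without PBS 1.

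Levels were compared between genes as CPM per kilobase of merged exons over the 8 libraries. Klrd1 was highest at 372 ± 53.7 CPM per kilobase, and its range did not overlap that of any other receptor gene. Klra7 at 26.8 ± 8.51, Klre1 at 26.0 ± 8.32 and Klrc1 at 13.9 ± 4.25 CPM per kilobase came next, each overlapping its neighbour in this order. They were followed, with overlap, by Klrg1 at 8.54 ± 3.73, Klrk1 at 6.72 ± 1.21, Klrb1c at 6.53 ± 11.3 and Klrb1b at 5.03 ± 1.54 CPM per kilobase. The place of Klrb1c rested on PBS 1, at 34.4 CPM per kilobase. Without that library Klrb1c was at 2.55 ± 0.787 CPM per kilobase (n = 7), below the range of Klrb1b and overlapping that of Klra1. Klra1 had 2.22 ± 0.416 CPM per kilobase and Klrc2 0.415 ± 0.120, without overlap with each other or with Klrb1b. CD94 transcripts thus stood at 418 ± 22.8 CPM per kilobase in Ex4 and 325 ± 21.3 in PBS, beside 13.7 ± 5.96 in Ex4 and 14.2 ± 2.56 in PBS for its partner chain NKG2A. The merged exons of Klrk1 cover 7183 bases and its longest transcript 3259, and over the longest transcript it was at 14.8 CPM per kilobase.

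The other genes of the pathway gave no call in edgeR. Of 20 further killer lectin-like receptor genes, 11 passed the low-count filter and 5 had no count in any library. Of the 11, 2 had a log2 fold change above 0 and 9 below (median -0.25, against 0.02 over all genes tested). At an unadjusted p under 0.05, 3 were lower in Ex4 and 0 higher, where 3.90% of all genes tested were lower. Without PBS 1 there was 1 lower, where 3.08% of 15203 genes were. Klrh1 was at 78.7 ± 3.34 CPM in Ex4 and 81.8 ± 7.46 CPM in PBS.

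Among 20 adaptors and proximal signalling genes 0 passed, with a median of -0.05. At an unadjusted p under 0.05, 1 was higher and 4 lower, against 3.71% and 3.90% of all genes tested. Without PBS 1 there were 1 higher and 2 lower. The higher one was Hcst. Ptpn6, the gene of the phosphatase SHP-1 that inhibitory receptors recruit, had 55.4, 81.4, 64.3 and 49.8 CPM in Ex4, against 199, 84.9, 84.1 and 71.8 CPM in PBS. Its log2 fold change was -0.81 with all libraries and -0.36 without PBS 1 (edgeR adjusted p = 0.571 and 0.857). Plcg2, a phospholipase of activating receptor signalling, was at 116 ± 8.64 CPM in Ex4 and 158 ± 24.1 CPM in PBS, with no overlap (log2 fold change -0.44, edgeR adjusted p = 0.432). Lcp2, the gene of the adaptor SLP-76, was at 477 ± 98.8 CPM in Ex4 and 636 ± 88.2 CPM in PBS (-0.41, edgeR adjusted p = 0.564).

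Among 12 tested ligand genes 0 passed (median -0.16). At an unadjusted p under 0.05, 0 were higher and 2 lower, against 3.71% and 3.90% of all genes tested. The 2 lower ones were Cdh1 and Ulbp1, and without PBS 1 there were 0 lower. H2-T23, the gene of the CD94 ligand Qa-1, was at 549 ± 57.5 CPM in Ex4 and 613 ± 75.4 CPM in PBS, and B2m, the class I light chain gene, at 2409 ± 366 CPM in Ex4 and 2126 ± 243 CPM in PBS.

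Among 16 other receptors of cytotoxic lymphocytes 0 passed in edgeR (median -0.02). At an unadjusted p under 0.05, 0 were higher and 1 lower, against 3.71% and 3.90% of all genes tested. The lower one, Crtam, which encodes an adhesion receptor on cytotoxic lymphocytes, was at 226 ± 77.0 CPM in Ex4 and 423 ± 28.8 CPM in PBS without overlap (log2 fold change -0.90, edgeR adjusted p = 0.31, DESeq2 adjusted p = 0.00793). Cd244a was at 205 ± 49.0 CPM in Ex4 and 280 ± 91.9 CPM in PBS, and Cd160 at 50.1 ± 10.8 CPM in Ex4 and 67.1 ± 25.0 CPM in PBS. PBS 1 was the highest library for both, and without it the log2 fold change of Cd244a was -0.20 in place of -0.45 and that of Cd160 -0.18 in place of -0.42. Ncr1, the gene of an activating receptor of natural killer cells, was at 6.83 ± 2.19 CPM in Ex4 and 10.6 ± 2.99 CPM in PBS.

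Among 15 transcription factor genes 0 passed (median 0.09). At an unadjusted p under 0.05, 0 were higher and 2 lower, against 3.71% and 3.90% of all genes tested. These 2 were Runx3, needed by cytotoxic T cells, at 140.3 ± 26.3 CPM in Ex4 and 192 ± 42.2 CPM in PBS, and Stat5a, which acts below common gamma chain cytokines, at 100.5 ± 4.45 CPM in Ex4 and 127 ± 14.8 CPM in PBS. Tbx21, the gene of T-bet, was at 72.6 ± 18.7 CPM in Ex4 and 73.8 ± 16.8 CPM in PBS. Eomes was at 2.11 ± 0.646 CPM in Ex4 and 0.940 ± 0.704 CPM in PBS. Tcf7 was at 45.9 ± 8.12 CPM in Ex4 and 64.6 ± 26.2 CPM in PBS (log2 fold change -0.49, and -0.19 without PBS 1).

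Correlations of log2 CPM were taken over the 8 libraries of both groups, so that a difference between the groups alone can make genes correlate. Over all 8, Pearson r was 0.89 for Klra7 and Klrd1, 0.74 for Klra7 and Klrk1, 0.73 for Klrd1 and Klrk1 and 0.91 for Klra7 and Hcst. It was 0.06 for Klrd1 and Klrc1, the 2 chains of the inhibitory heterodimer, and -0.04 for Klra7 and Klra1. With each group's mean taken off, r was 0.55 for Klra7 and Klrd1, 0.45 for Klra7 and Klrk1, 0.405 for Klrd1 and Klrk1 and 0.70 for Klra7 and Hcst. It was then 0.57 for Klrd1 and Klrc1. PBS 1, the lowest of the 8 libraries for Klra7, Klrd1, Klrk1 and Hcst, is part of all these values. No correlation without it is given here, so how far they rest on that library was not tested. Among 11107 other genes, and with the groups pooled, those most like Klra7 were Mocos (r = 0.99), Atxn7 (0.98), Selenom (0.98), Pigx (0.98) and Park7 (0.97). Those most like Klrd1 were Tctex1d2, Itgb3bp, Bach1, Magi1 and Siah1a (r = 0.94 to 0.95), and those most like Klrk1 were Synj1, Golph3l, Cotl1, Hprt and Arid4b (r = 0.95 to 0.97). With 8 libraries and so many genes such values are a description of these libraries.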

How the data were processed

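For 8 libraries the table deposited by the authors holds raw whole-number counts by gene symbol; libraries were made with a strand-specific TruSeq mRNA kit from TRIzol RNA, per the labels. Per the submitters' processing notes, STAR 2.7.9a, DESeq2 and the build mm10 were involved, with no role stated, and the read counter is not given in the sources used here. Each column was matched to a mouse by its label, and 0 per-sample columns were left unused. The labels describe separate mice without litter, batch or day. Every replicate pair differed by more than sampling noise (mean chi-square per gene from 20.6 to 77.1), and each library was counted once.

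The test was run in edgeR 4.0.16 under R 4.3.3 (filterByExpr, TMM, robust quasi-likelihood F test of Ex4 over PBS, Benjamini-Hochberg over 14691 genes, threshold 0.05). SEs were derived from the fold change and its F statistic. Shares were tested by exact two-sided permutation. Alternatives were DESeq2 1.42.0, limma-voom (limma 3.58.1), other scalings and filters, covariates, a replicate block and left-out libraries. On simulated counts for this comparison edgeR, with 14311 genes, recovered 13.6% of genes at a simulated fold of 1.5, 41.8% at 2 and 69.2% at 3, with 7 false calls among 89. DESeq2, which alone called Klra7, recovered 21.2%, 53.7% and 76.9%, with 29 false calls among 129. For limma-voom 5 of 80 calls were false. Lengths and transcripts came from GENCODE M21, and positions and promoters from RefSeq GRCm38.p6, which held a promoter for 8 of the 10 genes. Python 3.11.15 with Biopython 1.88 and matplotlib 3.10.9 was used for sequences and figures.

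The receptor genes and gene lists were chosen with earlier results of these data known. Named genes were the 10 receptor genes, other receptor genes at a mean of at least 1 CPM, the 4 genes of each further list with the smallest p, and Hcst, Tyrobp, H2-T23, Cdh1, Clec2d, Tbx21, Eomes and Ncr1. H60b, Klrc3, Kit, Epcam, Cd3e, Cd8a and Clec2i are not covered by it and, like the letters searched in promoters, were picked with their values in view. The same holds for Fcgr3 and for the B cell and myeloid markers that are named.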

Additional observations from a re-analysis of the deposited data

Results flagged for a closer look

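For the named genes (log2 CPM) and the 4 shares, the distance of an end value to the next one was taken as a ratio to the range of its group of 4. Dixon's limit was passed in 12 of 86 groups, where chance passes about 1 in 20, or 4.3. In 7 of the 12 the library concerned was PBS 1.

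Klrb1c was high in PBS 1, at 6.67 on the log2 scale against 3.23 for its neighbour (ratio 0.918), and Klrb1a at 5.59 against 2.27 (ratio 0.967). The share of Klrb1b in Klrb1b plus Klrb1c was low in PBS 1 at 8.32%, against 56.1% (ratio 0.856). Klra3 was low in PBS 1 at 1.95 on the log2 scale, against 2.53 (ratio 0.934). Ptpn6 (ratio 0.836), Cdh1 (0.883) and Tyrobp (0.831) were high in PBS 1. Klrb1b was high in PBS 2 at 4.06, against 3.34 (ratio 0.854). In the Ex4 group, Hcst was low in Ex4 2 at 6.68, against 6.92 (ratio 0.935), H2-T23 was high in Ex4 2 (0.866), Stat5a was low in Ex4 3 (0.85), and Klra9 was low in Ex4 4 at -0.18, against 1.26 (ratio 0.896).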

How the results depend on the processing

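Each of the 10 receptor genes was refitted under 19 alternatives, and 179 of these 190 values kept the direction and the side of the threshold. The exceptions were 10 changes of sign, in Klrc1, Klra1 and Klrb1b, and the call of Klra7 in DESeq2. DESeq2 gave no adjusted p for Klrc2, Klra1 and Klrb1c, and these were counted as not called. Klrc1 was at 0.13 and Klra1 at 0.0165 with the epithelial score as a covariate. With 1 library left out Klrc1 ran from -0.40 to 0.0842, Klra1 from -0.14 to 0.0888 and Klrb1b from -0.31 to 0.18. The number of receptor genes called was 0 in edgeR and, among those with an adjusted p, 1 in DESeq2 (Klra7, log2 fold change 0.77). With 1 library left out the adjusted p-values of all 10 stayed above the threshold. Among the related gene lists, a count chosen after seeing the data, 0 were called in edgeR, and 1, Crtam, in DESeq2 and with log2 total counts as a covariate.

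Over all genes the number called was 2 in edgeR, 83 in DESeq2, 1 in limma-voom, 8 without a filter and 1 with the epithelial score. It was 1 without any single library except PBS 2, and 14 without PBS 2. Replicate numbers did not pair the libraries: same-numbered deviations correlated at 0.107, -0.0251, -0.248 and 0.138. With the replicate block 1 gene was called over all and 0 of the receptor genes. The 4 shares kept their direction in all 11 alternatives each. They also stayed short of the threshold, but a share alone at the smallest exact p of 0.0286 gets an adjusted p of 0.114 over 4 shares. The sign flips within pairs, for which 0.125 is the smallest p, could not pass at all. Staying short of the threshold therefore says nothing about the stability of the shares. With the longest transcript in place of merged exons 5 of the 10 genes kept their place in the order of levels. Klrb1c had the largest SE of the 10 (1.04), followed by Klrc2 (0.45), with 25 to 76 counts per library. Klrb1c ran from -2.54 to -0.20 with 1 library left out. Levels per length, family sums and Cd8a without PBS 1, and correlations with group means taken off, were added after seeing the data.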

Other observations

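RefSeq promoter windows were searched for the letters TGACGTCA and TGACG, the full and the short cAMP response element, AGGTGTGA, letters of T-box sites, and TGTGGT, on both strands. The 8 receptor genes with a window had 12 windows in all. The full element and the T-box letters were in 0 of the 12, against 1.79% and 1.28% of all windows. The short element was in 2 of the 12, both of Klrc2, against 20.8% of all windows. The letters TGTGGT were in 7 of the 12, of Klrc1, Klrc2, Klrk1, Klre1, Klra1 and Klrb1c, against 16.8% of all windows. Windows of duplicated genes resemble each other and are not independent, and a match is a run of letters, not a measured binding site.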
